A study of Mus musculus with 14 samples.

Results

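Peaks of the Polycomb protein BMI1 and of the histone mark H2AK119ub at the ends of protein-coding genes were examined in heart cells of PBS-treated mice. A peak was taken as an end peak when it lay on chromosomes 1 to 19 in one of the 6 Homeostasis lists and its centre was within 1 kb of either boundary of a protein-coding gene in the RefSeq annotation of GRCm38. This rule selected 893 of the 36440 autosomal Homeostasis peaks, among 39832 peaks in the 12 lists of the series. Of the 893 peaks, 462 were nearest to a 5' end, 242 to a 3' end and 189 to an end of a gene whose strand was not given. Counts are of peaks per list, so 1 genomic place found in several lists contributed several peaks. Many places recur across lists, so agreement of 6 of 6 lists rests partly on the same places. A negative position below means that the peak centre lay outside the gene, in bp from the boundary, and positions are medians over the lists that hold a peak there, taking the peak nearest to the boundary in each list.

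The study profiled chromatin of Sca1+CD45- cells, a magnetically sorted, non-haematopoietic fraction of the heart, from C57BL/6 mice aged 6 to 8 weeks. Homeostasis mice received PBS only, and Damage mice received 1 intraperitoneal dose of the superoxide-generating herbicide paraquat at 20 mg/kg in PBS. Each treatment had 3 BMI1 and 3 H2AK119ub ChIP-seq libraries, and the labels do not say whether these came from separate mice, so the tests measure the spread between libraries, which may be technical. The labels also describe growth of these cells in low oxygen, without stating whether the ChIP cells had been cultured, and the 2 untreated Input libraries were not analysed here. Peak lists hold no expression values, so the labelled cell type could not be checked against its markers.

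BMI1 belongs to Polycomb repressive complex 1, in which it helps the RING1 ubiquitin ligases to place a single ubiquitin on histone H2A, the mark named H2AK119ub. In many cell types the complex and its mark cover CpG-rich promoters of silent developmental regulators, such as homeobox genes, and the Cdkn2a locus is a classical target of BMI1. The 5' end of a gene holds its promoter, and the 3' end its transcription termination region; small genes read by RNA polymerase III, such as tRNA genes, can lie beside either.

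The sequences below are shown because they carry what lay under several peaks close to gene starts: a tRNA gene or a short tandem repeat. Each is the stretch of 250 bases that ends just before a start in the RefSeq promoter table, here also the gene boundary, 5' to 3' on the gene's strand, in GRCm38.p6. For Polr3e (chr7:120917528-120917777, plus strand) the capitals mark 71 bases of the tRNA gene n-TLaag4, whose first bases lie before the stretch; for Tpcn2 (chr7:145284012-145284261, minus strand) and Lilr4b (chr10:51480362-51480611, plus strand) they mark the bases that lay under the peak in every list that had one, 6 and 5 lists respectively. For Olfr813 (chr10:129856270-129856519, plus strand) they mark the bases under its only peak, from H2AK119ub replicate 2.
Polr3e: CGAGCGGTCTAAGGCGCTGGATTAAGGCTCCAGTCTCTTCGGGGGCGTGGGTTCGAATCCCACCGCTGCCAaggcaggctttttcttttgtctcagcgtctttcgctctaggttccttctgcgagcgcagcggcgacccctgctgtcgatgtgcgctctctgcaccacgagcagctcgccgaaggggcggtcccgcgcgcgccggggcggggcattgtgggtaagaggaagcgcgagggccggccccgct
Tpcn2: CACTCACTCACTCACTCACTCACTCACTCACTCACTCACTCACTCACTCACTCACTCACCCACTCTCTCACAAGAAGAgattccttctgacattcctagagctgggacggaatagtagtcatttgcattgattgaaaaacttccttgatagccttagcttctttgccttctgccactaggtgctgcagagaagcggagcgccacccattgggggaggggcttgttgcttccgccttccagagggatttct
Lilr4b: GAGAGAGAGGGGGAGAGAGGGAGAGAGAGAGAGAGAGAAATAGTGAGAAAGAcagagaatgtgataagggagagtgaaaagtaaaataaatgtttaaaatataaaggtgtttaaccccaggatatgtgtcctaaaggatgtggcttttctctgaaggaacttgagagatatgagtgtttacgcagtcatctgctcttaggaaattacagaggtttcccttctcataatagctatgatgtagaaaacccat
Olfr813: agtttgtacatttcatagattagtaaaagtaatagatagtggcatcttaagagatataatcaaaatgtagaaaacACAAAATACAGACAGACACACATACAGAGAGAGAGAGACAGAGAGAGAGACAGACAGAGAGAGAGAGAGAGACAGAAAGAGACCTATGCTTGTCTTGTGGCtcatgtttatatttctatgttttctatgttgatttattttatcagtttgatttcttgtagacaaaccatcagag

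The n-TLaag4 gene upstream of Polr3e, which encodes a subunit of RNA polymerase III, holds the letters GGTTCGA, the conserved start of the B box that lies inside tRNA genes. The Tpcn2 peak, upstream of an endolysosomal cation channel gene, lay on a run of the unit CACT, unbroken over the first 59 bases of the stretch. Part of the Tpcn2 peak and part of the Lilr4b peak lie before the stretch and were not read, so the CACT run may be longer. The Lilr4b peak, upstream of a leukocyte inhibitory receptor gene, lay on GA-rich sequence with an unbroken run of 18 bases, and the Olfr813 peak, upstream of an olfactory receptor gene, on one with a run of 17 bases of the unit AG. The table's starts are often not the outermost boundary of the gene, from which every other position here is counted: 9841 of its 20085 windows were set on the 5' boundary, and 11890 of 16457 genes (72.2%) had a start within 50 bp of it. Over windows from 250 bases before to 50 bases after the table's starts, 17 of 20085 windows (16457 genes) held a base of a Homeostasis peak, 9 of them in 2 or more lists and 4 to 10 in any list. In 9 of the 17, a peak covered 15 or more bases of the window, and these 9 comprised 2 with a tRNA gene (Polr3e and BC107364), 4 with a tandem run of 15 or more bases under the peak (Tpcn2, Lilr4b, Relt and Olfr813) and 3 with neither (Mroh2a, Slx4ip and Stc2). The peaks in the windows of BC107364 and Slx4ip, and of Atxn7l1 and Cd22 among the rest of the 17, were not end peaks. Of all 20085 windows, 5 (0.0249%) held a tRNA gene, and 3 of these 5 had no peak in any list. A tandem run of 15 or more bases was found anywhere in 8.24% of all windows and in 5 of the 17. Runs were exact repeats of units of up to 6 bases with at least 3 copies. The B box letters GGTTCGA, searched like the other motifs on both strands, were in 1.04% of all windows and in 2 of the 17; the A box letters TGGCNNAGT were in 3.88% and in none of the 17, and the TATA letters TATAAA in 12.7% and in 3. A match describes the letters, not a bound site, and no match says only that these letters are not in this window. The observed-to-expected CpG ratio had a median of 0.314 over the 17 windows, 0.645 over the 9 with a peak in 2 or more lists and 0.586 over all; by list the median ran from 0.285 to 0.905, on either side of the value for all windows. Peak centres in these windows were at 0.296 ± 0.127 (SD, n = 6 lists) of the density over all autosomal bases, with a range of 0.140 to 0.476. The same window set about the 5' boundary of each of the 16457 genes, a comparison added after the data were seen, gave 1.09 ± 0.392 (0.727 to 1.67), with 33 genes holding a base of a peak in 1 or more lists and 18 in 2 or more. The low value therefore holds for the table's starts only, and peaks at outer boundaries such as those of Tbxas1 and Hes7, given below, are not among the 17. The repeats were looked at after the peaks under the windows had been seen, and no test was made of them.

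In the 3 BMI1 lists, 120 of 4515, 166 of 6958 and 103 of 3789 autosomal peaks were end peaks, which are shares of 2.66%, 2.39% and 2.72%. In the 3 H2AK119ub lists the counts were 54 of 1814, 284 of 12377 and 166 of 6987, or 2.98%, 2.29% and 2.38%. The ranges of the antibodies overlapped, and list length varied far more than the share: H2AK119ub held both the shortest list, replicate 1, and the longest, replicate 2. The share nevertheless fell with each step in list length, from 2.98% in the shortest list to 2.29% in the longest. The cause of this trend was not tested. The mean share was 2.59% ± 0.177 for BMI1 and 2.55% ± 0.373 for H2AK119ub (SD, n = 3 each), a difference of 0.0382 ± 0.238 points (SE; two-sided exact permutation p = 0.8, where the smallest possible p is 0.1). The windows within 1 kb of an end covered 74.7 Mb, or 3.06% of the autosomal span, and the share in each of the 6 lists was below that value. In each list the farthest end peak lay 963 to 997 bp from a boundary and the nearest peak beyond the limit 1002 to 1028 bp, with 88 peaks at 900 to 1000 bp and 98 at 1000 to 1100 bp.

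**Figure D1:**
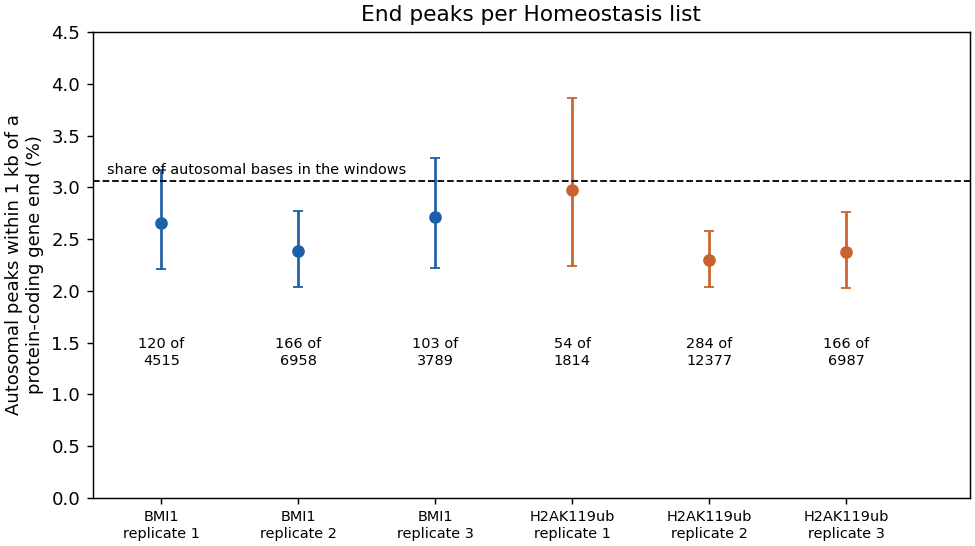
Share of autosomal peaks (%, vertical axis) lying within 1 kb of a protein-coding gene end in each Homeostasis list (horizontal axis), with exact 95% binomial intervals that cover counting error only and the counts printed under each point. The 6 points lie between 2.29% and 2.98%, under the dashed line at 3.06%, the share of autosomal bases in the windows; the upper bounds of 3 lists reach above it.

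The peaks were not spread evenly over the window: most lay outside the gene, and the largest class lay upstream of 5' ends. The stretch upstream of 5' ends held 360 of the 893 peaks, against 102 inside 5' ends, 162 downstream of 3' ends and 80 inside 3' ends; the remaining 189, at ends without strand, split into 124 outside and 65 inside. The 5' counts per list were 66, 83 and 61 for BMI1 and 35, 134 and 83 for H2AK119ub, beside 33, 48, 23, 9, 85 and 44 at 3' ends. In 6 of 6 lists the 5' count was the higher. Of peaks with strand, 68.1% ± 6.80 (SD, n = 6; 61.2% to 79.5%) were at 5' ends, which made up 49.8% of the stranded window bases. The highest of these values came from the shortest list and the lowest from the longest. The 5' minus 3' share was 36.2 ± 5.55 points (SE); the two-sided exact paired permutation p was 0.03125, the smallest that 64 sign arrangements allow, and 0.0729 after Benjamini-Hochberg adjustment over 7 paired tests, which missed 0.05. The 5' share of BMI1 minus that of H2AK119ub was -1.15 ± 6.18 points (SE; exact permutation p = 0.9).

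The inside share was 27.8% ± 1.84 (SD, n = 6), from 24.7% to 30.1%, where 50.0% of window bases lay inside genes. It was below 50% in 6 of 6 lists, by -22.2 ± 0.752 points (SE; exact paired permutation p = 0.03125, adjusted p = 0.0729). Leaving out peaks on tRNA and 5S rRNA genes gave 26.0 points for the 5' minus 3' share and -16.8 points for the inside share, each with an exact permutation p adjusted to 0.0438; the adjusted value moves with how many of the 7 tests reach the smallest p.

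Upstream of 5' ends the peak density per Mb was 1.83 ± 0.418 times that over all autosomal bases of the same list (SD, n = 6). The 3 BMI1 lists gave 1.87, 1.52 and 2.14, and the 3 H2AK119ub lists 2.47, 1.35 and 1.61, so each list was above 1 and the shortest list was the highest. Just inside 5' ends the relative density was 0.505 ± 0.127, inside 3' ends 0.372 ± 0.0537, and downstream of 3' ends 0.676 ± 0.139. The 0 to 1 kb window as a whole had 0.839 ± 0.0856, the ring at 1 to 2 kb 0.820, at 2 to 5 kb 0.925, at 5 to 10 kb 0.958, and bases over 10 kb from any end 1.02. The log2 ratio of density within 1 kb to density at 1 to 2 kb was 0.03 ± 0.05 (SE; exact paired permutation p = 0.5625, and the same after adjustment). Without peaks on tRNA and 5S rRNA genes that log2 ratio was -0.19 (adjusted exact permutation p = 0.0438), and the upstream density, recomputed so after the data were seen, was 1.22 times that over all autosomal bases (1.09 to 1.36).

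**Figure D2:**
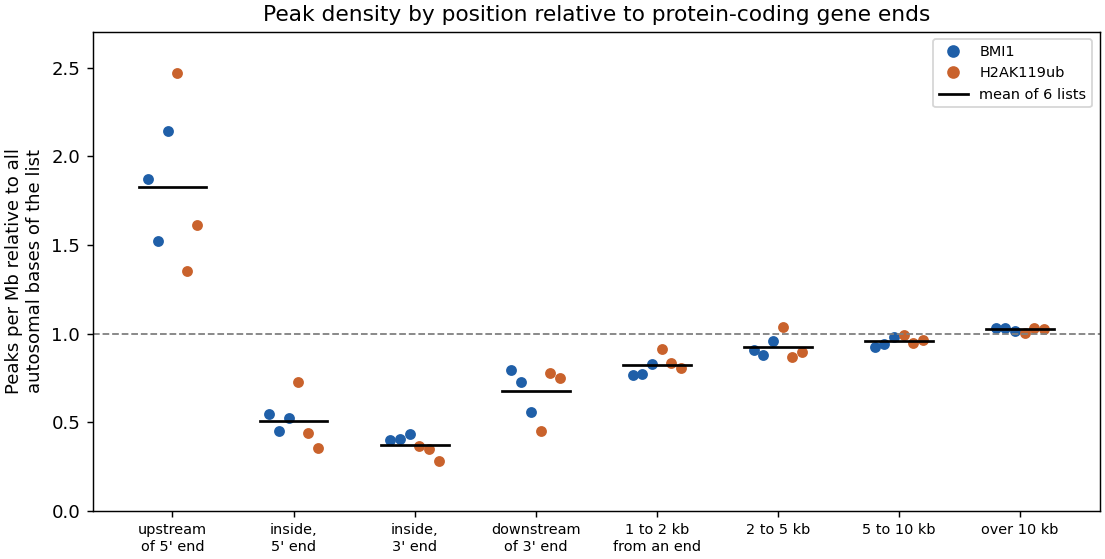
Peaks per Mb in each position class, relative to all autosomal bases of the same list (vertical axis, linear; the dashed line is 1); blue points are the 3 BMI1 lists, orange the 3 H2AK119ub lists and bars the mean of 6. Upstream of 5' ends the lists sit between 1.35 and 2.47, while inside 5' and 3' ends the means are 0.505 and 0.372, and over 10 kb from an end the mean is 1.02.

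A large share of the upstream peaks lay on tRNA genes, which encode transfer RNAs and are transcribed by RNA polymerase III from promoters within the gene. In all, 13.3% of the 893 end peaks overlapped a tRNA gene: 108 of 462 at 5' ends, 7 of 242 at 3' ends and 4 of 189 without strand. Of the 108, 104 lay outside the protein-coding gene. This is where most such tRNA genes lie with or without a peak: 32 of the 35 within 1 kb of a 5' end (91.4%) were outside, and 361 of all 391 autosomal ones (92.3%). Per list, the tRNA share of end peaks was 14.2%, 12.05% and 21.4% for BMI1 and 33.3%, 7.39% and 12.7% for H2AK119ub, against 0.736% to 4.03% of other autosomal peaks. The lowest end share exceeded the highest share among other peaks. Both shares were highest in the shortest list and lowest in the longest. The tRNA genes themselves are more common in the windows, which cover 3.06% of the autosomal span. Of the 391, 35 were within 1 kb of a 5' end, 9 of a 3' end and 3 of an end without strand. How far this placement accounts for the contrast between end peaks and other peaks was not tested. The peak centres lay a median of 3 bp from the centre of the tRNA gene (0 to 83 bp).

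Of 391 autosomal tRNA genes, 35 were within 1 kb of a 5' end; 22 of these (62.9%) had a peak, 12 of them in all 6 lists. Of the 344 tRNA genes farther than 1 kb from any end, 117 (34.0%) had one; this difference was not tested. Of 9 tRNA genes near a 3' end 3 had a peak, and of 3 near an end without strand 1. tRNA genes are a multicopy family with near-identical copies, and how reads matching several copies were assigned is not given in the sources used here, so which copy carried a peak is uncertain.

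**Figure D3:**
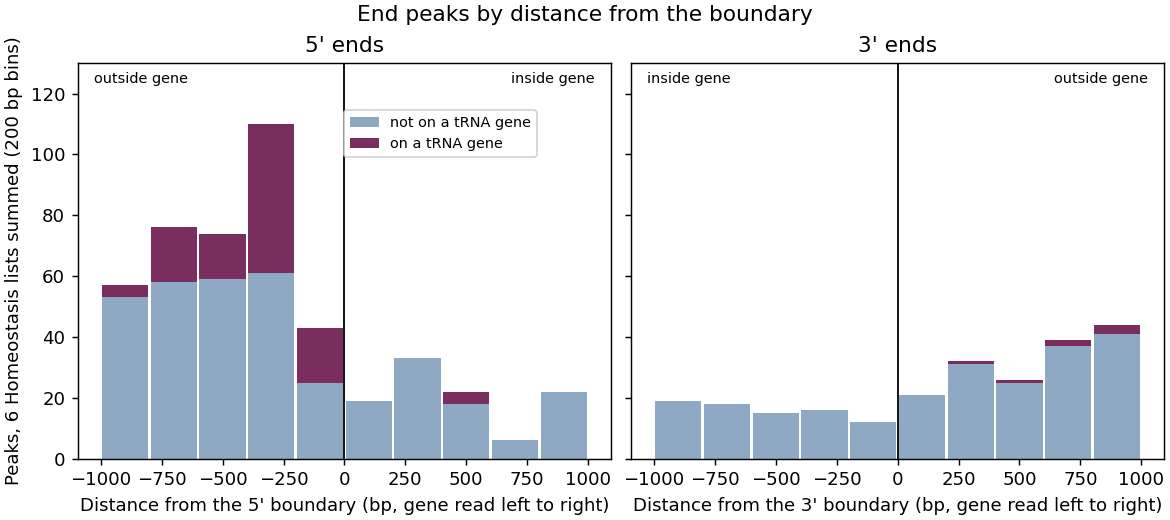
Number of end peaks, summed over the 6 Homeostasis lists (vertical axis), in 200 bp bins of distance from the gene boundary (horizontal axis, bp, each gene read left to right) at 5' ends (left) and 3' ends (right), with peaks on tRNA genes in purple. The highest bin lies 200 to 400 bp upstream of 5' ends, with 61 peaks off tRNA genes and 49 on them; no 3' bin held more than 3 peaks on tRNA genes.

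Counting all annotated genes that do not code for protein, 24.1% ± 7.47 of end peaks overlapped one, against 14.5% ± 1.96 of other peaks of the same list (SD, n = 6). The difference was 9.63 ± 2.25 points (SE), positive in 6 of 6 lists (exact paired permutation p = 0.03125, adjusted p = 0.0729). It was largest in the shortest list (19.1 points) and smallest in the longest (3.96 points). For tRNA genes alone, a comparison added after the data were seen, the mean difference was 15.0 points. Without peaks on tRNA and 5S rRNA genes the difference turned to -4.14 points (adjusted exact permutation p = 0.0438). All peaks left out count as overlapping and they were commoner among end peaks, so a fall was built into this setting. Besides tRNA genes, 47 end peaks lay on long noncoding RNA genes only, 14 on a long noncoding RNA and a tRNA gene together, 4 on 5S rRNA genes and 4 on small nuclear RNA genes, and 703 overlapped no such gene.

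Peak width was the sole size measure in lists whose score is constant: 5.05% of end peaks and 3.84% of other peaks were wider than the common 101 bp, a difference of 1.21 ± 0.659 points (SE; exact paired permutation p = 0.125, adjusted p = 0.219). End peaks overlapped a replicate list of the same antibody in 70.1% ± 14.2 of cases and other peaks in 72.2% ± 17.0 (SD, n = 6), a difference of -2.12 ± 1.85 points (SE; exact paired permutation p = 0.3125, adjusted p = 0.4375). Overlap with a list of the other antibody was 80.1% and 78.9%, a difference of 1.18 ± 1.29 points (SE; exact permutation p = 0.40625, adjusted p = 0.474). None of these 3 passed the test. Without peaks on tRNA and 5S rRNA genes, the replicate overlap of end peaks minus that of other peaks was -4.47 points (adjusted exact permutation p = 0.0438).

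**Figure D4:**
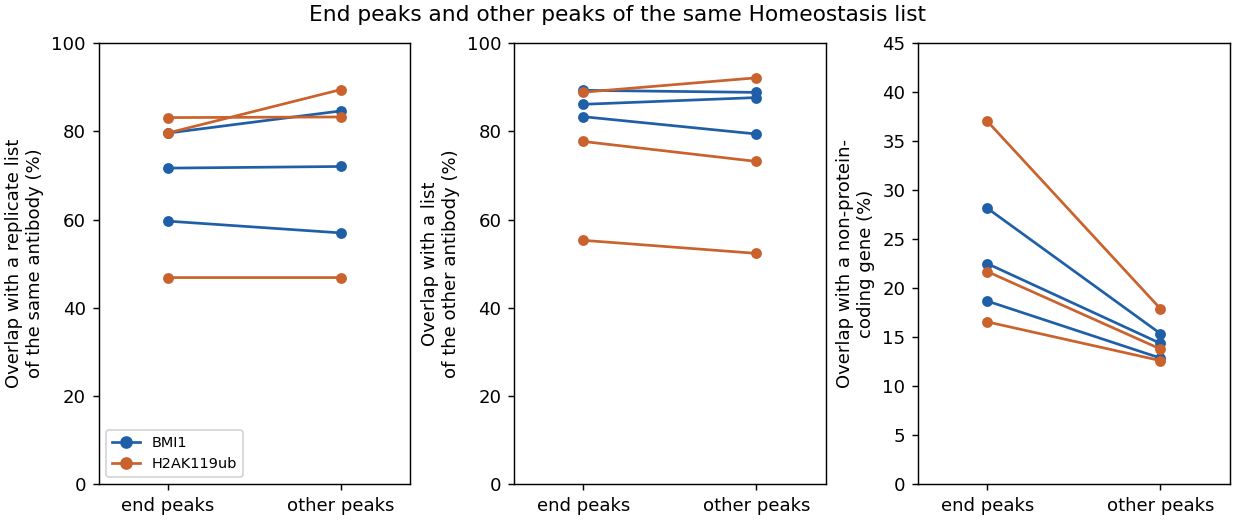
Percent of end peaks and of other autosomal peaks of the same list (joined points, 1 line per Homeostasis list; vertical axes in percent) that overlap a replicate list of the same antibody (left), a list of the other antibody (middle) or a gene that does not code for protein (right). The first 2 panels show lines in both directions, with means of 70.1% and 72.2% and of 80.1% and 78.9%; in the third every line is higher for end peaks, with means of 24.1% and 14.5%.

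Merging end peaks across lists gave 379 regions, of which 188 had a peak in 1 list, 54 in 2, 48 in 3, 26 in 4, 30 in 5 and 33 in all 6. Of the 191 regions in 2 or more lists, 172 (90.1%) had peaks of both antibodies. No region had a peak in all 3 lists of 1 antibody and in none of the other. Such region counts were not made for the other autosomal peaks. By peak, overlap with a list of the other antibody was alike, at 80.1% for end peaks and 78.9% for other peaks, so these counts are not particular to gene ends. H2AK119ub replicate 2, the longest list, supplied 110 of the 188 regions found in a single list (58.5%). Of the 25 regions on tRNA genes, 24 were in 2 or more lists and 12 in all 6; of the 354 others, 167 were in 2 or more and 21 in all 6.

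**Figure D5:**
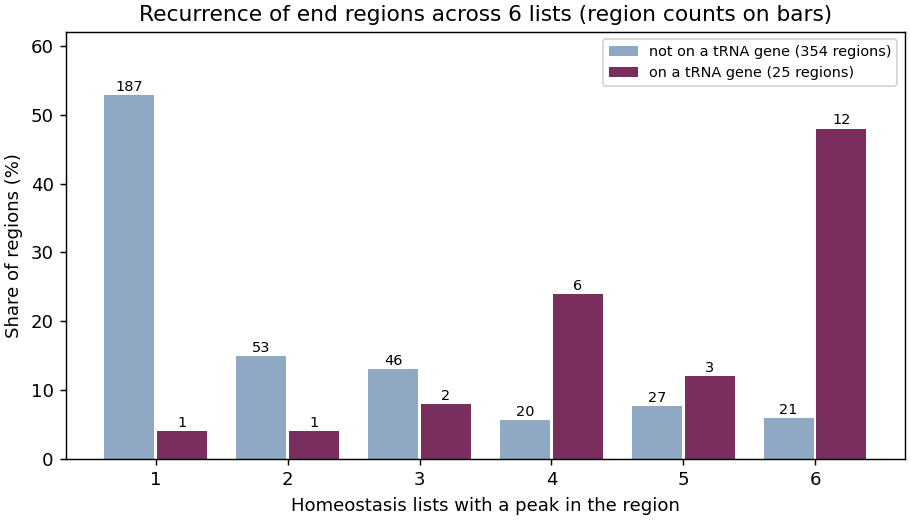
Share of merged end regions (%, vertical axis) by the number of the 6 Homeostasis lists with a peak in the region (horizontal axis), for regions on a tRNA gene (purple, 25 regions) and the others (blue, 354 regions), with region counts on the bars. Regions on tRNA genes are most often in all 6 lists (12 of 25), the others most often in 1 list (187 of 354).

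Few gene ends carried a peak. A peak in 1 or more lists was found at 169 of 16457 5' ends (1.03%), at 118 of 16457 3' ends (0.717%) and at 85 of 8416 ends without strand (1.01%). In 2 or more lists the counts were 106 (0.644%), 56 (0.34%) and 42 (0.499%), and in all 6 lists 24 (0.146%), 6 (0.0365%) and 7 (0.0832%). By gene, 365 of 20665 protein-coding genes (1.77%) had an end peak in 1 or more lists, 199 (0.963%) in 2 or more, 100 (0.484%) in 4 or more and 36 (0.174%) in all 6. 41 of the 893 peaks lay within 1 kb of the ends of 2 or more genes. Of these, 18 had 5' ends of genes on both strands within 1 kb, whether or not the peak lay between them.

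Among the 10 most recurrent 5' ends, all with a peak in 6 of 6 lists, 5 lay on tRNA genes. The peak at Hes7, a transcriptional repressor of the segmentation clock, was at -84 bp on n-TGgcc5 (chr11:69118761-69118879). That at Agbl5, a tubulin-trimming carboxypeptidase, was at -84.5 bp on n-TAagc15 (chr5:30888502-30888608). The Polr3e peak, whose tRNA gene is printed above, was at -241.5 bp, and that at Ppp6r3, a regulatory subunit of a protein phosphatase, was at -267.5 bp on n-TAagc9 (chr19:3576249-3576357). At Knl1, a kinetochore scaffold gene, the peak was at -327.5 bp on n-TSgct7 (chr2:119046737-119046843). By their names these tRNA genes serve glycine, alanine, leucine and serine, and each of the 5 peaks lay upstream of the protein-coding gene.

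The other 5 did not overlap a tRNA gene. The peak at Tbxas1, which encodes thromboxane synthase, spanned the gene boundary at -18.5 bp (chr6:38864070-38864196), and the Tpcn2 peak on the CACT repeat printed above was at -218.5 bp (chr7:145284175-145284284). At Gpr141, an orphan receptor gene, the peak was at -307.5 bp (chr13:19824576-19824699). At Trib3, a stress-induced pseudokinase gene, it lay inside the gene, 351 bp from the start (chr2:152343655-152343764). The H4c1 peak also lay inside the gene, 167 bp from the 5' end and 287 bp from the 3' end (chr13:23761028-23761134); H4c1 encodes histone H4 and is shorter than the window, so 1 peak counts for both of its ends.

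Of the 10 most recurrent 3' ends, 6 had a peak in all 6 lists (H4c1, Mrpl58, Lars2, Dntt, Slc25a42 and Akr1b8) and 4 in 5 lists. Downstream of Mrpl58, a mitochondrial ribosome-associated hydrolase gene, the lists placed their peaks at different points around a median of -540 bp (chr11:115412962-115413628): at -674, -904 and -426 bp for BMI1 and at -338, -506 and -574 bp for H2AK119ub, with a second peak of H2AK119ub replicate 1 at -675 bp. Of these 7 peaks 4 overlapped the tRNA genes n-TRcct5 or n-TRcct3. Lars2, the mitochondrial leucyl-tRNA synthetase gene, had its peak 681 bp inside the 3' end (chr9:123461939-123462050). The peak of Dntt, which adds untemplated nucleotides during antigen receptor rearrangement, was 739.5 bp inside (chr19:41058726-41058844), and that of Slc25a42, a mitochondrial carrier gene, 935.5 bp inside (chr8:70185215-70185327). The Akr1b8 peak, past an aldo-keto reductase gene, was at -949.5 bp on the pseudogene Gm13858 (chr6:34369356-34369467). Of the 4 ends in 5 lists, Olfr628 (-105 bp), Adgb, the androglobin gene (-203 bp), and Dnal1, an axonemal dynein light chain gene (-217 bp), each lacked a peak in H2AK119ub replicate 1, the shortest list, while the histone H4 gene H4f16, with a peak 167 bp inside, lacked one in BMI1 replicate 1.

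The naming rule took the 5 genes with the most lists among those with peaks at both ends in 2 or more lists each. At Hes7 the ends had separate peaks: 6 lists at the 5' end and 5 lists 351 bp inside the 3' end (chr11:69123629-69123772). At H4c1, H4f16, H2ac23 and H3f4, all histone genes of at most 563 bp, a single peak lay within 1 kb of both ends. H2ac23 had its peak at -386 bp from the 5' end in 3 lists (chr13:21809931-21810035), and H3f4 inside the gene, 353.5 bp from the 5' end, in 2 (chr11:58962013-58962116). Histone genes of the same class also resemble one another, so read assignment can be uncertain for peaks inside them too.

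Few genes of the classes that Polycomb is known to cover had an end peak, as did few genes of any kind. Of 76 homeobox and other developmental transcription factor genes, 1 had an end peak in 2 or more lists, En2, at -934 bp in 4 lists (chr5:28164702-28164839), and Hoxa10 had a peak in 1 list; the share in 2 or more lists, 1.32%, stood beside 0.963% of all protein-coding genes. Neither Cdkn2a nor Bmi1 itself had an end peak in any Homeostasis list, and 0 of 21 INK4, RB and p53 cell cycle genes had one. 0 of 20 cardiac and mesoderm transcription factor genes had a peak in 2 or more lists.

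Cell identity genes gave like counts. 0 of 22 endothelial, 0 of 12 smooth muscle, 0 of 20 cardiomyocyte and 0 of 20 stromal genes had an end peak in 2 or more lists; the endothelial cadherin gene Cdh5 had one in H2AK119ub replicate 2 only. Of 16 leukocyte genes, Fcgr3, an immunoglobulin Fc receptor gene, had end peaks in 4 lists, all on tRNA genes: 4 lists on n-TDgtc3, 518 to 522 bp inside the gene (chr1:171065343-171065447), 1 list on n-TLcag6 at -101 bp, and 2 on n-TGgcc12 at -750 and -755 bp. Of 25 superoxide and peroxide removal genes, Sod3, the extracellular superoxide dismutase gene, had peaks in 2 lists that did not overlap: 743.5 bp inside an end of unknown strand in BMI1 replicate 3, and 409 and 886 bp inside it in H2AK119ub replicate 1 (chr5:52368802-52369379). Of 27 respiratory chain genes none had one, and of 24 DNA and RNA housekeeping enzyme genes Polr3e did. Over the 12 lists together, 5 genes had an end peak in 2 or more Homeostasis lists, Sod3 among them without a shared place. Among all 20665 protein-coding genes 199 (0.963%) had one.

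The family shares below stand beside 0.963% of all protein-coding genes with an end peak in 2 or more lists. Among families taken by symbol, replication-dependent histone genes had the highest share, with 5 of 63 (7.94%) in 2 or more lists: H4c1, H3c1, H4c8, H2bc23 and H2ac23. These 5 genes rest on 3 places: H3c1 and H4c1 shared 1 peak, which lay at -803 bp from H3c1, H2bc23 and H2ac23 shared another, and the H4c8 peak, at -657 bp in 4 lists, lay on n-TMcat9 (chr13:23530334-23530439). Olfactory receptor genes had 6 of 1100 (0.545%), among them Olfr628 and Olfr1200 in 5 lists and Olfr671 in 4, and vomeronasal receptor genes 1 of 352, Vmn2r94, at -63.5 bp in 2 lists. Solute carrier genes had 2 of 360, Slc25a42 and Slc44a3, the latter at -463 bp in H2AK119ub replicates 2 and 3. The counts were 0 of 76 for cytosolic ribosomal protein genes, 0 of 386 for Zfp genes and 0 of 57 for protocadherin genes. The median gene length was 18.5 kb for genes with a peak in 2 or more lists and 17.5 kb for all. For the replication-dependent histone genes it was 492 bp, so 1 place can count for several ends and genes.

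After paraquat, 2 of 186 autosomal peaks were at gene ends. The 3 BMI1 Damage lists had 0 of 16, 0 of 24 and 0 of 41, counts of 0 that allow shares of up to 18.75%, 12.5% and 7.32%; the 3 H2AK119ub lists had 1 of 25, 1 of 58 and 0 of 22, the last allowing up to 13.6%. Both peaks lay inside genes: 342 bp from the 3' end of the predicted gene Gm13212 (chr4:145624951-145625051) and 286 bp from an end of Tti2, a cochaperone gene (chr8:31164367-31164467). Neither gene had a Homeostasis end peak, and no end window held peaks of both treatments. Over lists with at least 20 autosomal peaks, the Damage minus Homeostasis share was -1.61 ± 0.591 points (SE; exact permutation within antibody, p = 0.07), which missed 0.05. The p was 0.035 without that minimum, 0.01 without Damage H2AK119ub replicate 1 (-2.14 points) and 0.005 without predicted genes (-2.12 points), where 1 peak decides the value. It was 0.16 without Damage H2AK119ub replicate 3 (-1.14 points), 0.305 with a 2 kb window (-1.43 points) and 0.625 with a 500 bp window (-0.363 points); at 16 to 58 peaks a list, the Damage share was not measured well enough to set beside the Homeostasis share for any gene.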

How the data were processed

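BMI1 and H2AK119ub were profiled by ChIP-seq in 3 libraries per antibody and treatment. Bowtie2, HOMER 4.8 and the build GRCm38 come from the submitters' processing notes; for calling settings and the use of Input, nothing is stated (not given in the sources used here). For each library the authors deposited 1 peak list, whose score column never departs from 1, so only positions were used. Depth is unknown, and intervals (exact binomial, 95%) and limits for a count of 0 (3 counts of the total) cover counting error only.

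Peak centres were assigned to the nearest boundary of 20665 autosomal protein-coding genes of a RefSeq table (GRCm38.p6). Strand came from the RefSeq promoter table for 16457 genes (79.6%). Densities divide peaks by the bases nearest to each boundary. Paired tests exchanged the sign of each list's difference (64 arrangements) with Benjamini-Hochberg adjustment over 7 tests. Group tests permuted libraries (20 arrangements), and Damage was compared within antibody. All were two-sided and exact. They were also run on simulated lists, drawn independently and of equal length, which do not cover lists that share places or differ in length. End peaks of different lists that overlapped by 1 bp or more formed 1 region. Of 315 symbols in 12 gene lists, 313 matched; the result of 1 list is not reported here. Members, lists and tests were chosen with earlier results of these data known. Named were the 10 5' and 10 3' ends in the most lists (ties by smaller distance, predicted genes passed over), up to 5 genes with peaks at both ends, Damage peaks near Homeostasis end peaks, up to 3 recurrent genes per list, plus Bmi1 and Cdkn2a; Lilr4b, Olfr813 and the other genes named for their promoter windows, Hoxa10, Cdh5, Gm13212 and Tti2 were chosen after their values were seen. Same-numbered BMI1 and H2AK119ub lists correlated at 0.0947, 0.113 and 0.0238 in their deviations, and differently numbered lists at -0.135 to 0.0497. Numbers were not used as pairs in the main tests, but served as a block in an alternative. Alternatives were other windows, other gene sets, no peaks on tRNA and 5S genes and each library left out. Python 3.11.15, numpy 2.4.6, pandas 2.3.3 and scipy 1.17.1 were used.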

Additional observations from a re-analysis of the deposited data

How the results depend on the processing

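Depth is not known for these lists, no signal per peak was available, and strand was given for 79.6% of genes only, which limits every 5' and 3' count. With 5 lists the smallest exact p is 0.0625, so no paired test could pass the threshold with a list left out. With a 500 bp window the BMI1 minus H2AK119ub share was -0.00171 points, the log2 density ratio -0.059, the Damage minus Homeostasis share -0.363, the noncoding difference 16.9, overlap with the other antibody 4.01 and the width difference 0.105 points. With a 2 kb window the BMI1 minus H2AK119ub share was -0.131 and the log2 density ratio -0.22; the 5' minus 3' share was 23.6, the inside share -13.9, the width difference 1.90 and the noncoding difference 3.20 points. Without peaks on tRNA and 5S genes the log2 density ratio was -0.19, the 5' minus 3' share 26.0, the inside share -16.8, and the differences in replicate overlap -4.47, overlap with the other antibody -2.01, width -0.219 and noncoding overlap -4.14 points; the upstream density was 1.22. Densities compared without logs gave -0.0261 peaks per Mb. The Damage minus Homeostasis share was -2.12 without predicted genes and -1.61 without the minimum of 20 peaks. The listed genes with recurrent end peaks numbered 5 as reported, beside 199 of all protein-coding genes (0.963%). They numbered 3 with a peak in 4 or more lists, beside 100 (0.484%), and 10 with a 2 kb window, beside 375 (1.81%). The counts of listed genes thus moved in the same direction as those of all genes. The causes of these moves were not tested.

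Leaving out each library in turn gave -0.0890 to 0.252 points for the BMI1 minus H2AK119ub share, -4.90 to 4.28 for their 5' share, -2.14 to -1.14 for Damage minus Homeostasis, 31.7 to 39.0 for 5' minus 3', -22.7 to -21.6 for the inside share, 7.73 to 10.8 for noncoding overlap, 0.616 to 1.52 for width, -2.12 to -0.520 for replicate overlap, -0.365 to 3.77 for overlap with the other antibody and 0.000663 to 0.0670 for the log2 density ratio. With the replicate number as a block (replicate block), the BMI1 minus H2AK119ub share was 0.0382 points (exact permutation p = 0.75) and the 5' share difference -1.15 points (exact permutation p = 1). With 3 pairs of lists this test cannot reach 0.05, so no call could have changed.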

Other observations

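BMI1 replicate 1 alone held peaks downstream of the 3' ends of 6 vomeronasal receptor genes on chromosome 7, all on the minus strand: Vmn1r250 at -521 bp, Vmn1r247 at -528 bp, Vmn1r93 at -546 bp, Vmn1r114 at -684 bp, Vmn1r126 at -688 bp and Vmn1r258 at -705 bp. These genes belong to a family of pheromone receptors with near-identical neighbours, were chosen after their values were seen, and make up 6 of the 20 end regions that only this list held.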
